A study of Mus musculus with 5 samples.

Results

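The genes described are those of the cytosolic ribosomal proteins, the protein components of the large and small subunits of the ribosome that works outside mitochondria. They were found by their symbols in the array annotation, and the probe set with the highest mean log2 signal over the 5 arrays stood for each gene. This gave 75 genes of 21630 tested, 44 of the large subunit and 31 of the small subunit. Their symbols are carried by 409 probe sets in all. Rpl32 and Rpl36a, whose annotation cells hold the symbol in a doubled form, fell outside the rule and differed by 0.017 and 0.073 on the log2 scale (limma adjusted p = 0.776 and 0.554).

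The arrays came from mouse embryonic fibroblasts, connective tissue cells grown out of embryos, that had been carried to passage 40 under a 3T3 schedule of regular replating. The knockout group held 3 arrays labelled MDR2-/- (replicates 1, 2 and 3), and the wild-type group held 2 arrays labelled MDR2+/+ (replicates 2 and 3), from littermates per the design text. Mdr2 is an older name of Abcb4, a phospholipid transporter best known from liver cells. No label says whether replicates were separate embryos, lines or dishes, so the p-values cover only the variation among these arrays, which can be technical.

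A ribosome holds a single copy of nearly every one of these proteins, and cells match their supply to that of ribosomal RNA. Many of their messenger RNAs start with a cytosine followed by an uninterrupted run of pyrimidines, the terminal oligopyrimidine (TOP) tract, through which the mTOR pathway and the binding protein Larp1 control their translation and stability. Free ribosomal proteins such as Rpl5 and Rpl11 bind Mdm2 and so link ribosome assembly to p53. In mammals these genes have also left many processed copies in the genome, most of them pseudogenes, which resemble the spliced messenger RNA.

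A promoter entry was found for 56 of the 75 genes in RefSeq sequence of mouse build GRCm38.p6. A TOP tract was searched as a C followed by at least 4 pyrimidines, starting within 5 bases of the annotated start on the gene's strand. It was found in 27 of these 56 genes (48.2%), against 21.2% of 27025 genes of the same promoter table and 21.5% of its protein-coding genes. The 8 windows below show the feature in genes whose array values are described further on. Each runs 5′ to 3′ from 10 bases before the annotated start over 30 bases, with the tract as searched in capitals. The capitals begin at a C within 5 bases of the start. Pyrimidines directly before that C, as in Rpl14 and Rpl35, are thus in small letters.
Rps6: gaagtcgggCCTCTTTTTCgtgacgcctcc
Rps18: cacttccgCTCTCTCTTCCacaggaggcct
Rps23: cggctgggcggggCTTCCCgcaatgccttg
Rps26: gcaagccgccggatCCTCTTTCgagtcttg
Rpl14: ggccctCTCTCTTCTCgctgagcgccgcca
Rpl31: tcctcgCCTCCCCgtgacccggaagttgta
Rpl35: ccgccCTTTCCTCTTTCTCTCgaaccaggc
Rplp2: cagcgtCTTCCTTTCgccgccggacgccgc
In GRCm38.p6 the windows of Rps6, Rps18, Rps26 and Rpl35 lie on the minus strand at chr4:86857348-86857377, chr17:33955646-33955675, chr10:128626487-128626516 and chr2:39005112-39005141. Those of Rps23, Rpl14, Rpl31 and Rplp2 lie on the plus strand at chr13:90923112-90923141, chr9:120571507-120571536, chr1:39367841-39367870 and chr7:141447641-141447670.

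The tract of Rpl35, as searched, was 16 bases long and began 5 bases before the annotated start, the edge of the search. The run of pyrimidines goes on before that edge. The tract of Rps6 was 10 bases long and began 1 base before the annotated start. The tracts of Rpl31 and Rps23 were short, at 7 and 6 bases. The window of Rpl31 also holds CCGGAAG, the core that ETS family transcription factors bind. CCGGAAG was searched on both strands over 250 bases before and 50 bases after the start. It was present in 24 of the 56 genes (42.9%), against 9.93% of all genes in the table and 12.9% of its protein-coding genes. TATAAA, the core of the TATA box, was present in 5 (8.93%), against 15.7% of all genes and 14.8% of protein-coding genes. A TOP tract and CCGGAAG occurred together in 15 genes, and 20 genes had neither. These are matches of letters, and no match says only that these letters are not in the window.

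On the arrays, 0 of the 75 ribosomal protein genes passed the test between the groups (limma, Benjamini-Hochberg adjusted over all genes, threshold 0.05), against 0.301% of all genes tested. The lowest adjusted p was 0.231. With genes of equal values on all 5 arrays left out, 0 of the 75 were called, against 1.79% of the genes then tested. At an unadjusted p under 0.05 there were 7 members (9.33%), against 13.6% of all genes. Of these 7, Rpl22 and Rps28 were higher on the arrays labelled knockout, and Rpl19, Rpl30, Rpl31, Rps3 and Rps23 were lower. The groups did not overlap for 19 members (25.3%), 10 higher and 9 lower, against 25% of all genes, 10.6% higher and 14.4% lower. The first share is under the background of the table and the second is close to it.

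The differences were also small. The median log2 difference of the 75 genes, knockout minus wild type, was -0.0015, with a range from -0.28 to 0.35, beside a median of 0 over all genes. It was under 0.1 in size for 59 of the 75 (78.7%), against 49.8% of all genes, and under 0.2 for 72 (96%), against 67.8%. The 95% interval of the difference lay within 0.5 on either side of 0 for 71 members and within 1, a doubling or halving, for all 75. The members whose intervals reach beyond 0.5 include Rpl14, Rpl22 and Rpl30. A p above the threshold does not show that these genes were equal. The intervals give the sizes that remain possible at 5 arrays for the signal of the brightest probe set, which often lies away from the gene. With the probe set at the gene itself for every member, the interval lay within 0.5 for 66 members and within 1 for 74.

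**Figure D1:**
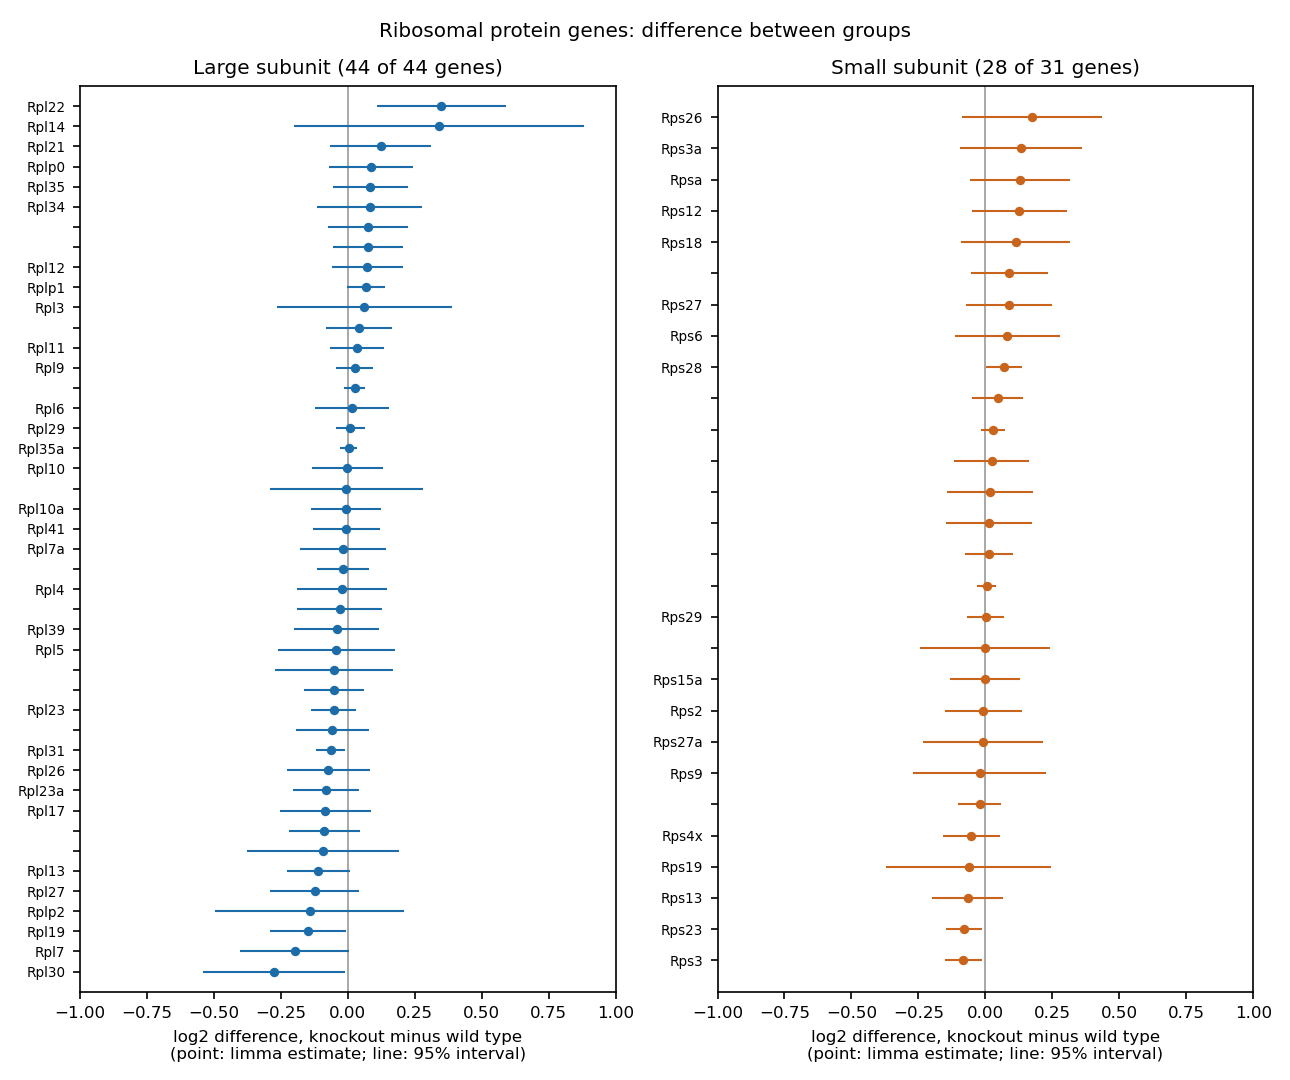
Log2 difference of each ribosomal protein gene, knockout minus wild type (horizontal axis), with its 95% interval from limma (line), for the 44 large-subunit genes and 28 of the 31 small-subunit genes; genes named in the text are labelled. The points run from -0.28 (Rpl30) to 0.35 (Rpl22), and most lie within 0.1 of 0.

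Signal strength is relevant to these sizes, since the mean log2 signal of 66 members was above 11, of 7 between 9 and 11, and of 2 below 8. The highest signal of any gene was between 12.7 and 12.9 on the 5 arrays. Probes differ in how well they bind, so a signal does not rank the abundance of different transcripts. In the 56 members with a signal of at least 11.4 the median size of the difference was 0.052. In the 45 other genes at or above that signal it was 0.099, and the groups did not overlap for 20 of them (44.4%). The median standard deviation between replicates was 0.055 in those members and 0.067 in those other genes. The part of the top of the signal range in these small differences was not tested.

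Rpl22, an RNA-binding protein of the large subunit that mouse cells can lose while they still make ribosomes, had the lowest p of the 75 genes. The knockout arrays gave log2 signals of 10.04, 9.83 and 10.02 (replicates 1, 2 and 3) and the wild-type arrays 9.58 and 9.65 (replicates 2 and 3). All 3 knockout arrays were above both wild-type arrays. The difference was 0.35 ± 0.083 (SE), or 1.27-fold, with an unadjusted p of 0.017 and an adjusted p of 0.231. Its only probe set, of 14 probes, lies at the gene itself on chromosome 4, 151699835 to 151708180 in build NCBIM37. Its paralogue Rpl22l1, which the Rpl22 protein is known to hold down in mice, differed by -0.0014 ± 0.20 (SE, adjusted p = 1.000).

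Rpl14, which binds ribosomal RNA on the surface of the large subunit, had a difference of nearly the same size with more spread. Its signal was 9.89, 9.74 and 9.52 on the knockout arrays and 9.17 and 9.58 on the wild-type arrays. Knockout replicate 3 lay below wild-type replicate 3, so the groups overlapped. The difference was 0.34 ± 0.19 (SE, adjusted p = 0.554). Its other probe set gave 0.14.

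Rpl30, which binds a kink in the ribosomal RNA near the subunit interface, had the lowest difference. Its signal was 5.55, 5.48 and 5.42 on the knockout arrays and 5.88 and 5.64 on the wild-type arrays. All 3 knockout arrays were below both wild-type arrays, by a difference of -0.28 ± 0.092 (SE, adjusted p = 0.346). These signals are near the array background, as given by 45 antigenomic probe sets without a target in the mouse, whose 95th percentile was 5.71 to 6.08 by array. Rplp2, one of the acidic stalk proteins, was also in that range, at 5.97, 5.86 and 5.96 against 6.24 and 5.90. For both genes the array holds 1 probe set, so their levels in these cells cannot be read from it.

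The other stalk proteins gave strong signals. The stalk recruits the GTPases that drive translation, and is built from Rplp0 with pairs of Rplp1 and Rplp2. Rplp1 was 12.46, 12.49 and 12.47 on the knockout arrays and 12.44 and 12.38 on the wild-type arrays. The knockout arrays were all higher, though by only 0.067 ± 0.024 (SE, adjusted p = 0.391). Rplp0 differed by 0.087 at its brightest probe set and by 0.28 at the probe set of its own gene (adjusted p = 0.270). At its own gene the signal was 11.46, 11.48 and 11.41 on the knockout arrays and 11.06 and 11.27 on the wild-type arrays, without overlap. Rpl12, which sits at the stalk base, differed by 0.072 at its brightest probe set.

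Among proteins around the exit of the nascent chain, Rpl19, Rpl31 and Rpl23a were lower without overlap and Rpl35 was higher without overlap. Rpl19 was 11.82, 11.78 and 11.69 on the knockout arrays and 11.88 and 11.94 on the wild-type arrays, a difference of -0.15 ± 0.049 (SE, adjusted p = 0.339). Rpl31 was 11.93, 11.91 and 11.92 against 11.96 and 12.01, a difference of -0.065 ± 0.019 (SE, adjusted p = 0.285). Rpl23a was 11.96, 11.97 and 11.87 against 11.99 and 12.04, a difference of -0.082 (adjusted p = 0.552). In these 3 genes every knockout array was below both wild-type arrays. Rpl35 was 11.87, 11.77 and 11.76 against 11.69 and 11.75, a difference of 0.083 (adjusted p = 0.554), with every knockout array above both wild-type arrays. Rpl26 and Rpl17, which lie at or near the same exit, differed by -0.073 and -0.085. Rpl4 and Rpl39, which line the tunnel, differed by -0.022 and -0.042.

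Rpl5 and Rpl11 form, with the small ribosomal RNA of the central protuberance, the particle that can bind Mdm2. Rpl5 was 11.03, 10.99 and 10.87 on the knockout arrays and 10.93 and 11.08 on the wild-type arrays. Rpl11 was 12.12, 12.08 and 12.04 against 12.01 and 12.08. The groups overlapped for both, with differences of -0.043 ± 0.075 and 0.035 ± 0.035 (SE). Rpl3 and Rpl10, which reach towards the peptidyl transferase centre, differed by 0.062 and -0.0019.

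Further large-subunit members at the ends of the order were Rpl21 at 0.12, and Rpl7, Rpl27 and Rpl13 at -0.20, -0.12 and -0.11. Of these, Rpl7 was 11.28, 11.23 and 11.17 on the knockout arrays and 11.34 and 11.51 on the wild-type arrays. The knockout arrays were all lower (difference -0.20 ± 0.070 SE, adjusted p = 0.377), and its 4 probe sets ranged from -0.25 to -0.20. Rpl34 differed by 0.081. Rpl41, among the smallest of proteins, differed by -0.0062.

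In the small subunit, Rps28 was the member with an unadjusted p under 0.05 that was higher. It sits where messenger RNA leaves the subunit, and was 12.25, 12.22 and 12.20 on the knockout arrays and 12.14 and 12.17 on the wild-type arrays. All knockout arrays were higher, by 0.069 ± 0.023 (SE, adjusted p = 0.355). Rps26, which lies beside the same exit, was 12.19, 12.07 and 12.05 against 11.82 and 12.04. Its groups did not overlap, but wild-type replicate 3 was just below the nearest knockout array, and the difference was 0.17 ± 0.090 (SE, adjusted p = 0.554). Rps27 differed by 0.088.

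Rps3 and Rps23 were the small-subunit members with an unadjusted p under 0.05 that were lower. Rps3, part of the channel through which messenger RNA enters, was 10.64, 10.65 and 10.65 on the knockout arrays and 10.70 and 10.76 on the wild-type arrays. Rps23, at the decoding centre, was 11.54, 11.50 and 11.50 against 11.58 and 11.61. Neither gene's groups overlapped. Rps3 differed by -0.083 ± 0.024 (SE, adjusted p = 0.286) and Rps23 by -0.080 ± 0.024 (SE, adjusted p = 0.299).

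The small-subunit genes with the largest positive differences include Rps26 at 0.17, Rps3a at 0.13, Rpsa at 0.13, Rps12 at 0.13 and Rps18 at 0.11. For each of these 5 genes wild-type replicate 2 had the lowest signal of the 5 arrays. Rps18, for example, was 11.86, 11.80 and 11.71 on the knockout arrays, and 11.61 and 11.75 on the wild-type arrays. Towards the other end were Rps13 at -0.067 and Rps19, a gene mutated in Diamond-Blackfan anaemia in humans, at -0.062. Rps6, the substrate of the S6 kinases, was 11.53, 11.45 and 11.38 against 11.31 and 11.44 and differed by 0.082 ± 0.068 (SE, adjusted p = 0.593). Rps29 differed by 0.00046 and Rps27a, made as a fusion with ubiquitin, by -0.010.

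The subunits were compared by the medians of their members. The median log2 difference was -0.012 over the 44 large-subunit genes, 18 positive and 26 negative, and 0.013 over the 31 small-subunit genes, 18 positive and 13 negative. Large minus small was -0.025, where the standard deviation between replicates of the same quantity was 0.019. The groups did not overlap for 5 large-subunit genes that were higher and 7 that were lower, and for 5 and 2 in the small subunit. Over all genes these shares were 10.6% higher and 14.4% lower, and the counts of the subunits were not tested against each other. The subunit difference in medians was close to the spread between replicates. It was -0.050 without wild-type replicate 3, -0.047 without wild-type replicate 2 and -0.043 without knockout replicate 2, so each of these arrays moves it by over 1.5 times. It was -0.038 with the probe sets at the genes and -0.013 after a second quantile normalization.

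Within each group the ribosomal protein genes moved together from array to array. Knockout replicate 1 had the highest of the 5 signals for 36 members and wild-type replicate 3 for 30. Knockout replicate 3 had the lowest for 35 members and wild-type replicate 2 for 32. Knockout replicate 1 was above knockout replicate 3 for 71 members and below it for 2, with a median gap of 0.097. Wild-type replicate 3 was above wild-type replicate 2 for 69 members and below it for 5, with a median gap of 0.078. The medians of the deviation from the wild-type mean were 0.038, 0.0041 and -0.059 on the 3 knockout arrays and -0.039 and 0.039 on the wild-type arrays. The span of these medians within each group was thus wider than the difference between the groups.

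Over the 343 other genes with a signal of at least 9.80, the median gap between knockout replicates 1 and 3 was 0.016, and that between wild-type replicates 3 and 2 was 0.064. In the 45 other genes with a signal of at least 11.4, closer to that of the members, these gaps were 0.026 and 0.056, with knockout replicate 1 above knockout replicate 3 for 26 genes and below it for 17. The medians of their deviation from the wild-type mean were 0.050, -0.013 and -0.024 on the 3 knockout arrays and -0.028 and 0.028 on the wild-type arrays. The order of these medians is thus that of the members' medians within each group, and whether the 2 sets differ was not tested. The median signal of all genes lay between 4.27 and 4.33 on every array. What differs between these replicates was not tested.

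**Figure D2:**
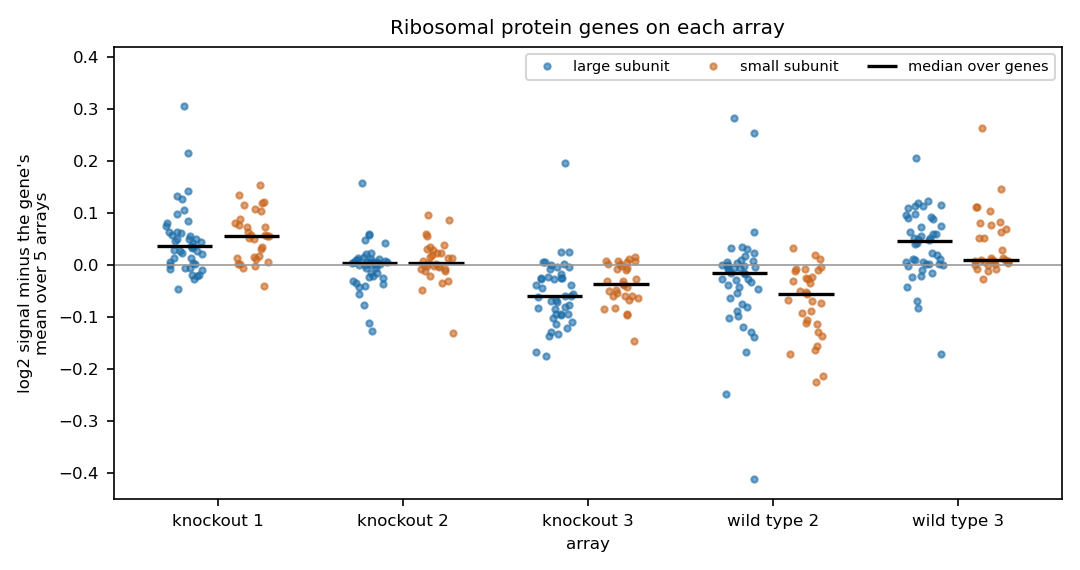
Log2 signal of each ribosomal protein gene on each array minus that gene's mean over the 5 arrays (vertical axis); points are genes, coloured by subunit, and black bars are medians over genes. The medians of knockout replicate 1 and wild-type replicate 3 sit above 0, those of knockout replicate 3 and wild-type replicate 2 below it.

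The place of the probe sets decides what a check by chromosome can show. Of the 409 probe sets, 77 lie at the gene they are named for and 332 elsewhere in the genome, as judged by whether the neighbouring genes are the same in the array annotation and in RefSeq. The probe sets elsewhere span a median of 524 bases, against 2771 bases at the genes, and their median signal was 11.5 in both. The brightest probe set lay at the gene for 29 members and elsewhere for 46, on another chromosome for 41 of them. Rpl21 had the most probe sets, 29, and 11 members had 1. Signal from a gene and from its copies cannot be told apart by these probe sets.

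The probe set at the gene mostly gave the same difference as the brightest one. In the 46 members where these are different probe sets the sign was the same for 40, and the median gap between the 2 differences was 0.013. The largest gap, 0.31, was that of Rpl12, whose own probe set was at 5.68, 5.73 and 5.70 on the knockout arrays and 5.78 and 4.86 on the wild-type arrays, near the background. The own probe sets of Rpl34 and Rps15a were also dim, with means of 6.53 and 6.74. Rpl23 differed by -0.25 at its own gene and by -0.053 at its brightest probe set. With the probe set at the gene for every member, 0 of 75 were called, against 0.301% of all genes. When each of the 409 probe sets was tested by itself, 0 passed and 23 had an unadjusted p under 0.05. Over all 21964 features of that fit these counts were 65 and 2972. Probe sets of the same gene are not independent, and some, as for Rpl35a, hold the same values on every array.

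Members whose probe sets differ in sign numbered 14. They were Rpl3, Rpl6, Rpl7a, Rpl9, Rpl10, Rpl10a, Rpl29, Rpl31, Rpl35a, Rps2, Rps4x, Rps9, Rps15a and Rps27a. For Rpl31, 8 of the 9 probe sets differed by -0.080 to -0.032. The remaining one, at chr7:108938806-108939412 in build NCBIM37, was at 5.83, 6.40 and 6.19 on the knockout arrays and 5.23 and 4.47 on the wild-type arrays, a difference of 1.30. It spans 607 bases away from the gene, with all knockout arrays higher, at signals near the 95th percentile of the antigenomic probe sets. It was singled out after its values were seen.

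By the position of the gene, the members lay on 18 chromosomes, with none on chromosomes 6 and 19. By the position of the brightest probe set, 7 members were on chromosome 6 and 1 on chromosome 19. Chromosome 7 held the most genes, 14, with a median difference at the gene of -0.036. The 7 genes of chromosome 11 were all lower at the gene, from -0.25 to -0.035, with a median of -0.073 beside -0.032 for all 1613 genes of that chromosome. The 5 genes of chromosome 4 were all higher, from 0.029 to 0.35, and the 3 of chromosome 3, from 0.074 to 0.13, beside medians of 0.019 and 0.050 for all genes of these chromosomes. At the gene, the 6 genes of chromosome 17 were also all higher, from 0.0090 to 0.14, and the 3 of chromosome 1 all lower, from -0.23 to -0.032. The medians for all genes of chromosomes 17 and 1 were 0.0094 and -0.037. At their brightest probe sets Rpl10a and Rps2, of chromosome 17, differed by -0.0057 and -0.0085. Chromosomes 11, 4, 3, 17 and 1, with at least 3 members and all of 1 sign at the gene, were picked after values were seen. No chromosome was tested, and 0 of these genes was called.

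**Figure D3:**
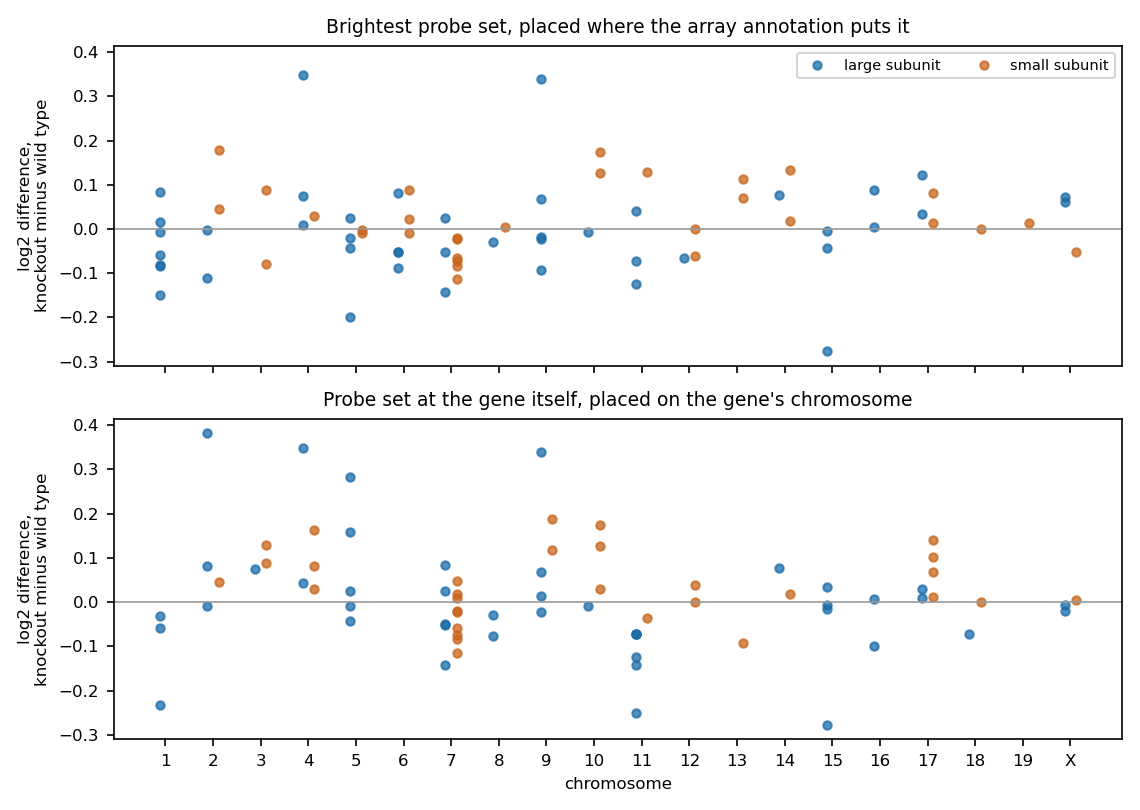
Log2 difference of each ribosomal protein gene, knockout minus wild type (vertical axis), by chromosome: above, the brightest probe set at its own position, and below, the probe set at the gene. Chromosome 6 holds 7 genes in the upper panel and none in the lower one, and the 7 genes of chromosome 11 lie under 0 in the lower panel.

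Of the X chromosome, 3 members have their gene there, Rpl10, Rpl39 and Rps4x. At the genes they differed by -0.0066, -0.020 and 0.0041, a median of -0.0066 beside 0.0091 for the 72 autosomal members. The brightest probe set of Rpl10 is on chromosome 2 and that of Rpl39 on chromosome 15, while those of the autosomal genes Rpl12 and Rpl3 are annotated to the X. The 828 X-linked genes of the table had a median difference of 0.023. These values matter here because the groups differ in genes of the sex chromosomes. Xist, which silences one X chromosome in females, was 7.32, 7.68 and 7.45 on the knockout arrays and 2.98 and 3.17 on the wild-type arrays (difference 4.41, adjusted p = 0.0250). The Y-linked Ddx3y and Eif2s3y differed by -4.40 and -4.99 (adjusted p = 0.0267 and 0.0296), so genotype label and sex-linked expression cannot be told apart in any of these comparisons.

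Abcb4 itself was not lower in the knockout group, at 6.002, 4.63 and 5.74 against 4.05 and 3.95. Every knockout array was above both wild-type arrays, by a difference of 1.46 (limma adjusted p = 0.358). On every array but knockout replicate 1 its signal was under the 95th percentile of the antigenomic probe sets. Each difference given is thus that of the arrays labelled knockout. The part of the gene that was disrupted is not given in the sources used here, so a probe set outside it would check nothing. Fibroblast markers had a median signal of 10.2, and markers of epithelial, endothelial, blood, muscle and neural cells 3.14 to 3.67. Of the 15 fibroblast markers 0 was called, and 4 had a positive difference and 11 a negative one. The groups did not overlap for 2 that were higher and 6 that were lower, against 10.6% and 14.4% of all genes. Among the lower ones were Fn1 at -0.50 and Col3a1 at -1.01 (adjusted p = 0.110 and 0.139). The surface protein Thy1 was 10.55, 9.70 and 10.16 against 5.60 and 5.22 (difference 4.73, adjusted p = 0.052, and 0.015 with genes of equal values left out), so one of the defining markers was near the background in the wild-type group.

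Of the 12 paralogues, fusions and ribosome-bound relatives outside the rule, 0 were called. Rps27l, a paralogue of Rps27 induced by p53, was 8.64, 8.93 and 8.57 on the knockout arrays and 9.57 and 9.997 on the wild-type arrays. All knockout arrays were lower, by a difference of -1.07 ± 0.19 (SE, adjusted p = 0.175), while Rps27 itself differed by 0.088. Fau, whose product is cut into a ubiquitin-like part and a ribosomal protein, differed by 0.12 ± 0.050 (SE, adjusted p = 0.469). Rack1, the signalling scaffold of the small subunit, differed by -0.12. Rpl10l, best known from testis, Rpl3l, from striated muscle, and Rpl39l had signals between 1.59 and 3.72, under the 95th percentile of the antigenomic probe sets.

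The lists of ribosome supply held 0 called genes each. Their counts at an unadjusted p under 0.05 stand beside shares of 5.36% higher and 8.29% lower over all genes. Of 30 translation factors with TOP messenger RNAs, 1 was higher and 1 lower, with a median difference of -0.058. They were Pabpc1, the poly(A) binding protein, at 0.27, and Eif4a1, the helicase of initiation, at -0.22 (adjusted p = 0.217 and 0.171). Of 31 initiation factors 2 were higher and 5 lower, with a median of -0.050. Eif4g3, a scaffold of the cap complex, had the largest test statistic among them, at -0.66 (adjusted p = 0.105, and 0.047 with genes of equal values left out). Of 107 ribosome assembly factors 8 were higher and 10 lower, with a median of -0.035, and of 21 genes of RNA polymerase I and its factors 2 were higher and 4 lower, with a median of 0.026. Polr2l and Polr2h, subunits that the RNA polymerases share, differed by -1.08 and 1.00 (adjusted p = 0.128 and 0.150).

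Of 40 regulators of ribosome supply in the Myc and mTOR pathways, 4 were higher and 4 lower, with a median of -0.012. Myc, the transcription factor known to raise ribosomal protein and ribosomal RNA genes, was 9.02, 9.06 and 9.60 on the knockout arrays and 7.64 and 6.95 on the wild-type arrays. All 3 knockout arrays were higher, by 1.93 ± 0.32 (SE), with an adjusted p of 0.158. Rps6kb1, a kinase of Rps6, differed by -0.71 and Larp1 by -0.29 (adjusted p = 0.210 for both). Mtor itself was between 5.916 and 5.920 on every array. That is near the background, where the 95th percentile of the antigenomic probe sets was 5.71 to 6.08 by array, so these values do not show a steady level.

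Within the 10 genes of the checkpoint that links ribosomal proteins to p53, 1 was higher and 4 lower at an unadjusted p under 0.05. Over all genes these shares were 5.36% higher and 8.29% lower. By limma 0 of the 10 were called, and the list was not tested as a set. Mdm2, the ubiquitin ligase that Rpl5 and Rpl11 bind, was 6.42, 6.73 and 7.01 on the knockout arrays and 8.82 and 8.15 on the wild-type arrays. Cdkn1a, a cell cycle inhibitor and p53 target, was 6.86, 6.81 and 7.995 against 11.22 and 10.48. For both genes all knockout arrays were lower, with differences of -1.76 and -3.63 (adjusted p = 0.164 and 0.132). Cdkn2a, whose locus encodes another inhibitor of Mdm2, differed by 1.99 (adjusted p = 0.067, and 0.021 with genes of equal values left out), and Trp53 by 0.076.

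**Figure D4:**
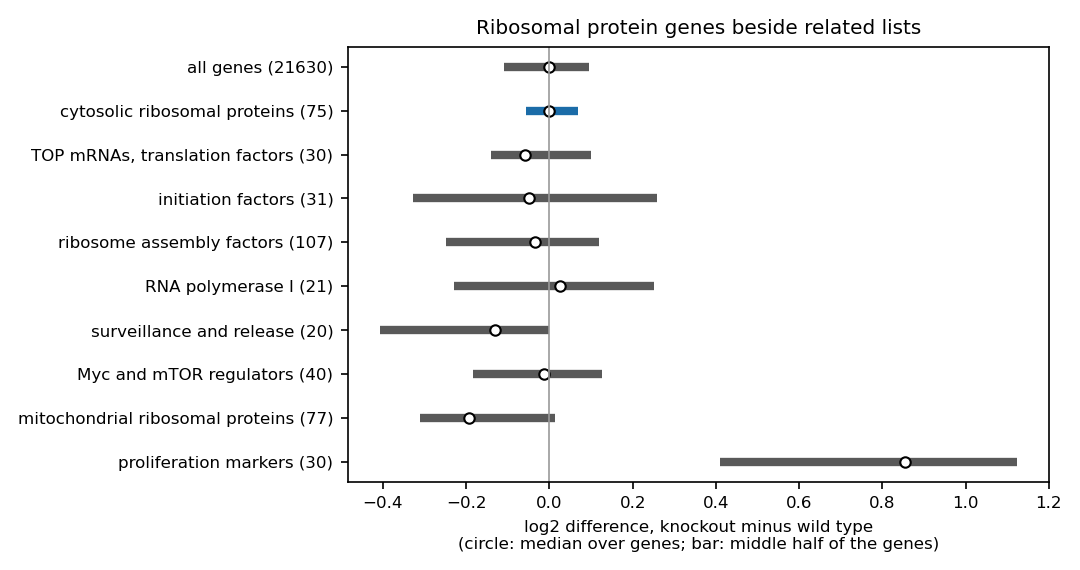
Median log2 difference (circle) and the middle 50% of genes (bar), knockout minus wild type, for all genes, the ribosomal protein genes and related lists, with the number of genes in brackets. The bar of the ribosomal protein genes runs from -0.056 to 0.068, and that of the mitochondrial ribosomal proteins from -0.31 to 0.012.

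The differences were also set side by side by promoter feature. The median log2 difference was 0.013 in the 27 genes with a TOP tract, from -0.15 to 0.34, and -0.0057 in the 29 without one, from -0.12 to 0.35. It was 0.014 in the 24 genes with CCGGAAG, from -0.15 to 0.17, and -0.0038 in the 32 without it, from -0.12 to 0.35. These splits were given no test.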

How the data were processed

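Total RNA was amplified, labelled with biotin and hybridised to 5 Affymetrix arrays, per the labels' protocols. The authors deposited log2 signals, 1 per probe set and array, made with Affymetrix Expression Console per the submitters' processing notes. Which version ran, and how it summarised and normalized probes, is not given in the sources used here. Of 35556 probe sets, 28350 are in the main category and 25004 of these carry 1 symbol. Names were updated through RefSeq tables of GRCm38.p6, and coordinates were not moved between builds. The annotation coordinates are taken as NCBIM37, since 2759 of 2980 rows that state a position in it overlap their own coordinates.

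The brightest probe set stood for each of 21630 genes. The comparison used limma 3.58.1 (R 4.3.3) without a block, leaving 3 residual degrees of freedom, and Benjamini-Hochberg adjusted p-values over all genes at 0.05, and the method was tested on simulated data. Adjusted p-values are from this fit unless another setting is named, such as genes of equal values left out or the probe set at the gene. The number of arrays limits precision; 1589 genes have equal values on all 5 arrays, which lowers limma's prior variance. A probe set was placed at its gene when at least 3 of the 10 genes on each side were shared with RefSeq; the counts seen were 0 or at least 12. The members and gene lists were chosen with earlier results of these data known. Members were named by rule: the 6 largest and 6 smallest differences of each subunit, the 3 brightest and 3 dimmest, those on the X chromosome and those with probe sets of opposite sign; the members at an unadjusted p under 0.05, and those given for their role in the ribosome, were added after values were seen. Some genes that these rules take are not reported here. In other lists up to 3 genes with the largest test statistic were named, and further ones were chosen after their values were seen. The alternatives were other scalings, filters, prior variances, probe set rules, array weights, the replicate block and leaving out each array.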

Additional observations from a re-analysis of the deposited data

How the results depend on the processing

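By limma, 0 ribosomal protein genes were called under any of the alternatives, with between 1 and 11 at an unadjusted p under 0.05 and a lowest adjusted p of 0.1001. The count over all genes, 65, did change. It was 363 after a second quantile normalization, 250 with array medians subtracted, 270 with dim genes left out and 107 with array weights. It was 359 with genes of equal values left out (1.79% of those tested), also with the members at their own locus, an alternative chosen after seeing the data. It was 0 at a threshold of 0.01 and 0 with the replicate number as a block (2319 genes at an unadjusted p under 0.05). Leaving out each array gave 0 to 335 calls: 0 without knockout replicates 1 or 3 (where 2297 and 2196 had an unadjusted p under 0.05), 2 when knockout replicate 2 was left out, and 189 and 335 without wild-type replicates 2 and 3. Without 1 wild-type array the other stands alone and is assumed to vary like the knockout arrays.

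The members' median difference stayed within the spread between replicates of 0.051 under every alternative run. It was -0.037 with array medians subtracted, a scaling that moves the median of all genes to -0.036, and -0.027 to 0.030 with each array left out. Its sign is not settled. Large minus small subunit was -0.050 to -0.019 with each array left out, -0.038 at the genes' own loci and -0.013 after a second quantile normalization. With the replicate block the members' median was -0.021 and large minus small -0.028. The block rests on 2 shared numbers. The deviations of same-numbered arrays had r = -0.172 and -0.135. With 2 wild-type arrays, their deviations from the group mean are mirror images. Knockout replicate 2 thus had r = 0.172 with the other wild-type array. These correlations therefore cannot decide whether the numbers pair the samples, and the results with and without the block are both given. Of 774 values of 43 named members under alternatives, 64 moved by more than their spread between replicates.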

Other observations

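Mitochondrial ribosomal proteins, which make up the separate ribosome of mitochondria and are encoded in the nucleus, were mostly lower in value in the knockout group. Of 77 such genes 53 had a negative and 24 a positive log2 difference, with a median of -0.19, beside -0.0015 for the cytosolic genes. Over all 21630 genes 9551 were negative and 10489 positive. At an unadjusted p under 0.05, 3 of the 77 were higher and 15 lower, and 0 were called by limma, where 5.36% of all genes were higher and 8.29% lower at that level. The same shares are the background of the counts that follow. Mrpl23, of the large mitochondrial subunit, differed by -0.43 (adjusted p = 0.106), and Mrps14 and Mrps23, of the small one, by -0.70 and -0.76. Their signals deviated from the mean of the wild-type arrays by medians of -0.16, -0.041 and -0.26 in knockout replicates 1, 2 and 3, so knockout replicate 2 lay within the range of the wild-type arrays, -0.045 and 0.045. The difference between the cytosolic and mitochondrial lists was not tested.

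Of 20 genes of ribosome surveillance and release, 0 were higher and 4 lower at an unadjusted p under 0.05, and 0 were called by limma, with a median of -0.13. They include the stalled-ribosome kinase Map3k20 at -1.17, the release factor Etf1 at -0.45 and Ascc2, which helps to split collided ribosomes, at -0.41. Of 30 proliferation markers 5 were higher and 0 lower at that level, and 0 were called, with a median of 0.85. Against the mean of the wild-type arrays their medians were 0.19, 1.41 and 1.05 in knockout replicates 1, 2 and 3. Knockout replicate 1, where the cytosolic ribosomal protein genes most often had their highest signal, was thus the knockout array with the smallest deviation of the proliferation markers. Whether these patterns are related was not tested.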
